A study of Mus musculus with 4 samples.

Results

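The genes described here encode nucleolar ribosome assembly factors: core proteins of the small nucleolar ribonucleoproteins (snoRNPs), abundant nucleolar proteins, RNA polymerase I with its factors, and assembly factors of the small and the large ribosomal subunit. They were chosen by gene symbol from a list of 44, drawn up with earlier results of these data known. All 44 were found among the 25630 rows of the expression table. RNA was measured in BEKO, a mouse thymic lymphoma cell line with genotype WT. Cells at low density gave 2 libraries, called L1 and L2 here, and cells at high density gave H1 and H2; the labels name no treatment, cell number or culture time. Whether L1 and L2, or H1 and H2, are separate cultures is not said, so the p-values speak only for the spread between libraries, which may be technical. Levels are TPM, transcript abundance corrected for transcript length and scaled to a total of 1000000 in each library. A TPM value is a share of the RNA counted, so it cannot tell fewer cells with a transcript from less of it per cell.

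All 12 T lineage markers examined, among them Cd3e and Lck, were above a mean of 1 TPM, with a summed level of 7308 to 8690 TPM per library. Of the B cell markers 0 of 6 reached that mean, with sums of 0.243 to 1.32 TPM, and of the erythroid markers 2 of 5, with sums of 3.56 to 7.05 TPM. The myeloid markers reached it in 3 of 8 cases (Cd68, Itgam and S100a9), with sums of 20.6 to 30.8 TPM and Lyz2 and S100a8 at 0. S100a9 measured 7.36 TPM in L1 and 0 in L2, H1 and H2. Of the markers of stroma, epithelium and endothelium 3 of 9 reached it, with sums of 110.1 TPM in L1, 52.5 in L2, 48.4 in H1 and 38.2 in H2. Most of these sums was Pecam1, at 62.5 TPM in L1, 51.8 in L2, 47.9 in H1 and 37.4 in H2. Epcam and Cdh5 were at 0. L1 stood apart in Col1a1, a fibrillar collagen, at 30.3 TPM against 0 to 0.236 TPM in the other libraries. So it did in Col1a2, at 14.5 TPM against 0.12 to 0.3 TPM. The high density libraries stood further from each other than the low density pair, with a pooled SD of log2 values of 0.43 against 0.28 over the 10936 rows tested. What part these differences between libraries have in the results was not tested.

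Ribosomes begin in the nucleolus, where RNA polymerase I transcribes a long precursor of ribosomal RNA. Box C/D snoRNPs direct methylation of its riboses, and box H/ACA snoRNPs convert selected uridines to pseudouridine. A large complex, the small subunit processome, folds and cleaves the part that becomes the small subunit, and another series of factors assembles the large subunit around its own RNA. Growing and dividing cells make many of these factors in large amounts, and the transcription factor MYC is known to bind E-box motifs in promoters of many of the genes.

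Most of these genes had lower levels in the high density libraries, and 9 of the 44 passed the test. High density was compared with low density by limma on log2(TPM + 1) over the 10936 rows whose mean reached 1 TPM, and a gene was called at an adjusted p under 0.05 (Benjamini-Hochberg over all rows tested). All 44 genes passed that filter. Of them 9, or 20.5%, were called lower: Ebna1bp2, Rrp9, Dkc1, Nop16, Bop1, Nhp2, Mybbp1a, Nolc1 and Gnl3. The same call was made for 2.11% of all rows tested (231 rows). By limma 0 of the 44 were called higher, and 0 were higher at an unadjusted p under 0.05, while 4.57% of all rows were called higher. At an unadjusted p under 0.05, 30 of the 44 were lower, against 7.76% of all rows. With no filter on low values limma called 0 of the 44 and 0% of 25630 rows (10 of the 44 lower at an unadjusted p under 0.05). Among rows whose mean reached 5 TPM it called 14 lower, with 3% of the rows.

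The log2 fold change, a difference of mean log2(TPM + 1) values, was below 0 for 43 of the 44 genes, against 40.3% of all rows. By mean TPM 42 of the 44 were lower at high density, the exceptions being Rrp8 and Nop14. The median log2 fold change of the 44 was −0.79, where that of all rows was 0.12. The groups did not overlap in 34 genes, all lower at high density, a pattern found in 20% of all rows. The summed level of the 44 genes was 8734 and 8903 TPM in the low density libraries, 4660 TPM in H1 and 6802 TPM in H2. The median was −0.74 without L1 and −0.84 without L2, but −0.39 without H1 and −1.21 without H2. Without L2 limma called 0 of the 44, with 12 lower at an unadjusted p under 0.05, and 0.749% of all rows. Without L1 it called 3 (Nhp2, Rrp9 and Ebna1bp2) and 0.634% of all rows. With a high density library left out the count was 17 (without H1, where 7.88% of all rows were called lower) and 39 (without H2, 11.7%).

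Some markers of the T lineage also differed between the densities. Rag1 and Rag2 encode the recombinase that rearranges antigen receptor genes in immature lymphocytes. Rag1 measured 609 and 480.2 TPM in L1 and L2 and 185 and 182 TPM in H1 and H2 (log2 fold change −1.56 ± 0.23 SE, limma adjusted p = 0.00283). Rag2 measured 47.7 and 40.6 TPM in L1 and L2 and 16.0 and 12.9 TPM in H1 and H2 (log2 fold change −1.55 ± 0.27 SE, limma adjusted p = 0.00702). Both were called lower, the remaining 10 T lineage markers were not called, and for Ptprc, the CD45 phosphatase, values were 466 and 367 TPM in L1 and L2 and 636 and 660.1 TPM in H1 and H2 (log2 fold change 0.65 ± 0.23 SE, limma adjusted p = 0.112). Of the myeloid markers, Cd68 measured 14.9 and 17.7 TPM in L1 and L2 and 9.36 and 8.46 TPM in H1 and H2 (limma adjusted p = 0.129) and Itgam 8.27 and 6.62 TPM in L1 and L2 and 16.1 and 12.1 TPM in H1 and H2 (limma adjusted p = 0.134), in opposite directions and neither called. S100a9, above 0 in L1 alone, was not called either (limma adjusted p = 0.254). The part of these differences in the levels of the 44 genes was not tested.

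**Figure D1:**
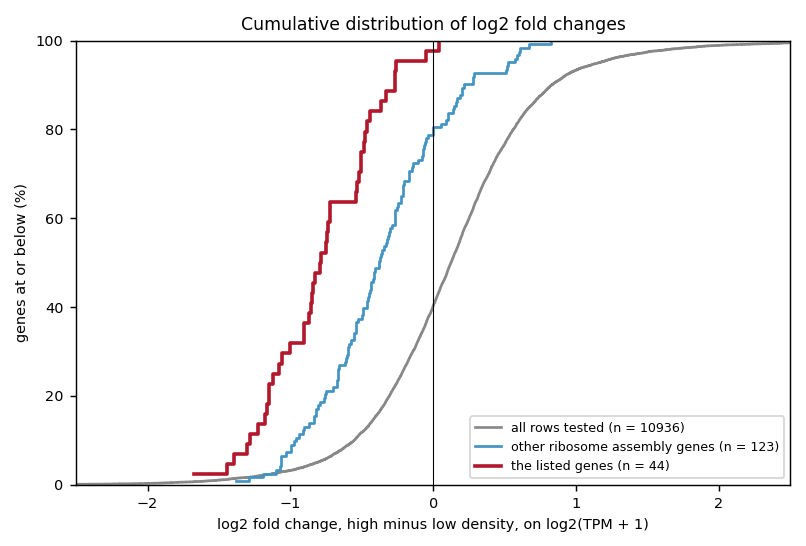
Cumulative share of genes (y axis, %) against the log2 fold change of high over low density on the log2(TPM + 1) scale (x axis) for the 44 listed genes, 123 other ribosome assembly genes and all 10936 rows tested. The medians are −0.79, −0.38 and 0.12, and at a log2 fold change of 0 the curves stand at 97.7%, 80.5% and 40.3%.

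Promoter sequences from RefSeq (build GRCm38.p6, 250 bases before to 50 after the transcription start) were at hand for 40 of the 44 genes, and the E-box sites in them are shown because MYC, named above, binds this motif. Entries were missing for Fbl, Npm1, Rrp12 and Bop1. Each was searched for the E-box CACGTG, which reads the same on both strands and belongs to the wider class CANNTG. The motif was present for 10 of the 40 genes (25%). By gene it was present for 1016 of 8418 tested rows with a promoter (12.1%) and 2187 of all 27025 genes with a promoter (8.09%). By promoter entry it was in 10 of 50 entries of the listed genes (20%) and in 2349 of all 32851 (7.15%). Among 101 other ribosome assembly genes with a promoter, 17 (16.8%) had it. It was found for 1 of the 8 called genes with a promoter and for 9 of the 32 not called. Of its 11 sites, 10 began within 60 bases of the start. The sites are shown with up to 12 bases on either side, 5′ to 3′ on the strand of the gene, with the E-box in capitals; the window ends where the promoter entry ends.
Mybbp1a, chr11:72441355-72441376, + strand: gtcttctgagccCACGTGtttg
Wdr43, chr17:71616220-71616249, + strand: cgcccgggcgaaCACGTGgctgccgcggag
Nop2, chr6:125131811-125131840, + strand: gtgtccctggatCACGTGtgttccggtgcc
Pes1, chr11:3963965-3963994, + strand: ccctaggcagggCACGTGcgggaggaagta
Pno1, chr11:17211540-17211564, - strand: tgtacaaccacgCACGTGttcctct
Utp18, chr11:93885769-93885798, - strand: gcgagcgccggtCACGTGgcttgcggcggc
Ltv1, chr10:13193092-13193121, - strand: gccctgtggaccCACGTGtggagctgccgg
Rrn3 upstream site, chr16:13780472-13780501, + strand: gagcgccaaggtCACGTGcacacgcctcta
Rrn3 proximal site, chr16:13780639-13780668, + strand: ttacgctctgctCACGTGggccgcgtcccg
Tsr1, chr11:74898092-74898121, + strand: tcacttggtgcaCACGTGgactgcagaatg
Utp20, chr10:88826765-88826789, - strand: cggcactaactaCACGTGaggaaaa

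Mybbp1a was the called gene with the motif. Its whole promoter entry, chr11:72441077-72441376 on the + strand, is given so that the site can be seen in its place, 40 bases after the first transcribed base, with the E-box in capitals.
Mybbp1a: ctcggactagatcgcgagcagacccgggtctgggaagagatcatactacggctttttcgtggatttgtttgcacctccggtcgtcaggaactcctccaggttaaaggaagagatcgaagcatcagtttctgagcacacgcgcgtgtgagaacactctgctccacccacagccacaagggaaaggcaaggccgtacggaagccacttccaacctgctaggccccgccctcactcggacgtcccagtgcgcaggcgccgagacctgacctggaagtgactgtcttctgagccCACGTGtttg

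All 4 core proteins of the box H/ACA snoRNP were lower in both high density libraries than in either low density library, and 2 were called. Over all rows 20% were lower without overlap and 2.11% were called lower. Dkc1 encodes dyskerin, the pseudouridine synthase of the particle, which is also part of telomerase. It measured 209 and 218 TPM in L1 and L2 and 67.6 and 109 TPM in H1 and H2, a 2.42-fold lower mean (log2 fold change −1.31 ± 0.27 SE, limma adjusted p = 0.0149). Nhp2, a protein that binds the guide RNA, measured 299.8 and 397 TPM in L1 and L2 and 147 and 156 TPM in H1 and H2, with the high density libraries close together and the low density libraries further apart. Its mean was 2.30-fold lower (log2 fold change −1.18 ± 0.24 SE, limma adjusted p = 0.0134).

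Gar1, which helps substrate RNA to be bound and released, measured 220.4 and 239.6 TPM in L1 and L2 and 86.3 and 172 TPM in H1 and H2 and was not called (log2 fold change −0.91 ± 0.31 SE, limma adjusted p = 0.0987). Nop10 encodes a very small protein of the same particle. It measured 279 and 343 TPM in L1 and L2 and 225 and 156 TPM in H1 and H2 (log2 fold change −0.72 ± 0.25 SE, limma adjusted p = 0.112). In Nop10 H2 was the lower of the pair, the reverse of Gar1 and Dkc1. The ratio of low to high density for Gar1 was 1.33 without H1 and 2.67 without H2. Dkc1 was not called without L1 and without L2 (limma adjusted p = 0.0812 and 0.243), nor Nhp2 without L2 (0.422), nor after median centring of each library (limma adjusted p = 0.0515).

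Of the 4 core proteins of the box C/D snoRNP, 3 are among the 44 genes. Limma called 0 of these 3 (1 lower at an unadjusted p under 0.05, Fbl). Over all rows 2.11% were called lower and 7.76% were lower at an unadjusted p under 0.05. The remaining core protein, Snu13, is on the list of other assembly genes and was called lower, from 764 ± 41.6 to 399 ± 59.8 TPM (limma adjusted p = 0.03). Fbl encodes fibrillarin, the methyltransferase of the particle. It measured 295 and 275 TPM in L1 and L2 and 149.7 and 198 TPM in H1 and H2, without overlap between the groups (log2 fold change −0.72 ± 0.24 SE, limma adjusted p = 0.0915). Nop56 and Nop58 encode a pair of related scaffold proteins of the same particle. Nop56 measured 490.1 and 534 TPM in L1 and L2 and 258 and 516 TPM in H1 and H2 (log2 fold change −0.49 ± 0.30 SE, limma adjusted p = 0.362). Nop58 measured 513 and 534 TPM in L1 and L2 and 226 and 598 TPM in H1 and H2 (log2 fold change −0.51 ± 0.36 SE, limma adjusted p = 0.435). Both were low in H1 alone, with H2 between the low density libraries for Nop56 and above both for Nop58, and the sign of both changes turned without H1 (log2 fold change 0.014 and 0.19). Whether the 2 kinds of snoRNP differed in their response was not tested.

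Of the 3 abundant nucleolar proteins, Npm1 and Ncl had the highest mean TPM among the 44 genes, and Nolc1 was the one called. Over all rows 2.11% were called lower. Npm1, nucleophosmin, a chaperone that organises the outer layer of the nucleolus, measured 1526 and 1483 TPM in L1 and L2 and 1265 and 1248 TPM in H1 and H2 (log2 fold change −0.26 ± 0.22 SE, limma adjusted p = 0.505). Groups did not overlap in Npm1, though its difference did not pass the test. Ncl, nucleolin, an RNA-binding protein of ribosomal RNA synthesis and processing, measured 702 and 672 TPM in L1 and L2 and 434 and 538 TPM in H1 and H2 (log2 fold change −0.51 ± 0.23 SE, limma adjusted p = 0.2). Nolc1, a chaperone that carries snoRNPs between the Cajal body and the nucleolus, measured 287 and 284 TPM in L1 and L2 and 96.7 and 170.1 TPM in H1 and H2. Its mean fell from 285 ± 2.64 to 133 ± 51.9 TPM (mean ± SD, n = 2; log2 fold change −1.15 ± 0.28 SE, limma adjusted p = 0.0321). L1 and L2 were nearly equal in Nolc1 while the high density libraries were 1.76-fold apart. The call was lost without L1 or L2 (limma adjusted p = 0.181 and 0.332), after quantile normalisation (0.0763), after rescaling without ribosomal protein genes (0.0523) and without the variance trend (0.078).

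**Figure D2:**
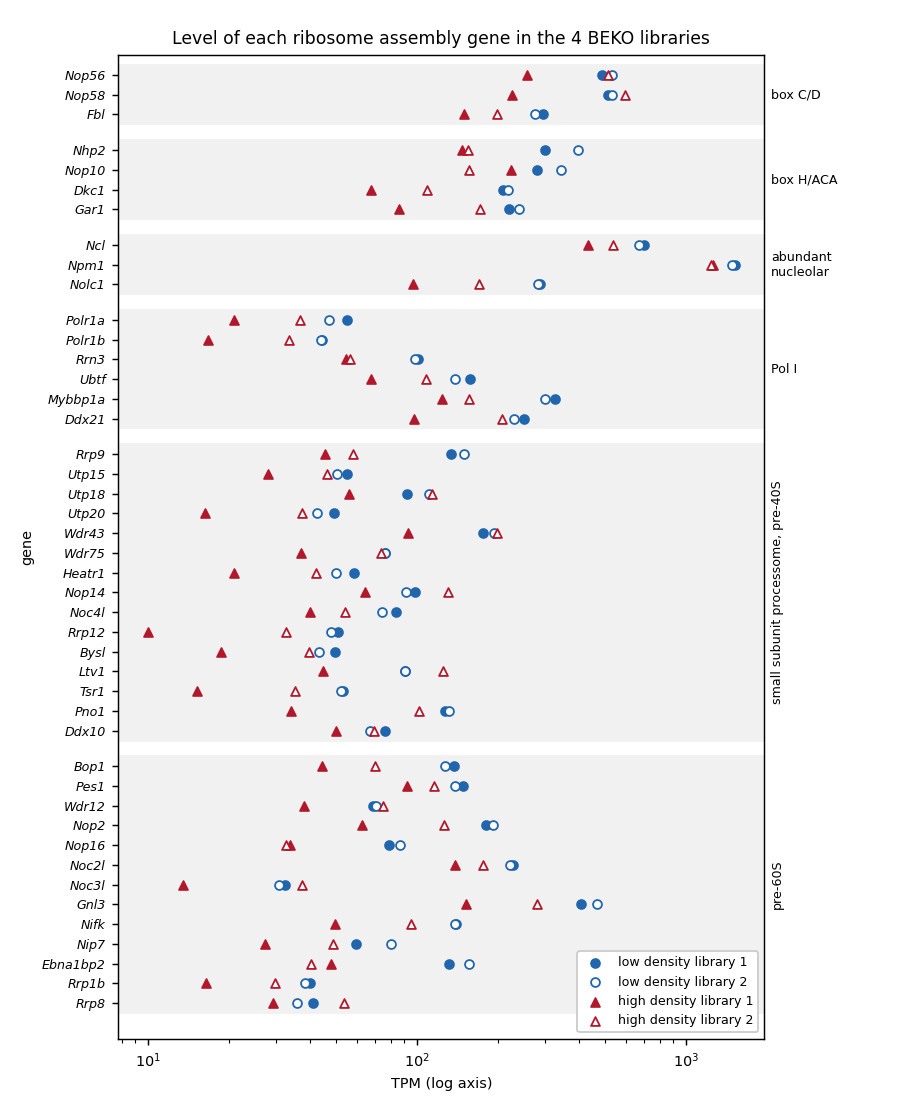
TPM of each of the 44 genes (x axis, log scale) by role of the protein (y axis), with circles for low density and triangles for high density, filled for L1 and H1 and open for L2 and H2. The filled triangle lies left of both circles in all 44 genes, and the open triangle in 34.

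For RNA polymerase I and its factors H1 and H2 were below L1 and L2 in all 6 genes, 6 had an unadjusted p under 0.05, and 1 was called. Over all rows the shares, in the lower direction, were 20%, 7.76% and 2.11%. Polr1a, the largest subunit, measured 55.1 and 47.1 TPM in L1 and L2 and 20.9 and 37.0 TPM in H1 and H2 (log2 fold change −0.85 ± 0.30 SE, limma adjusted p = 0.118). Polr1b, the other large subunit, measured 44.6 and 43.9 TPM in L1 and L2 and 16.7 and 33.7 TPM in H1 and H2 (log2 fold change −0.87 ± 0.33 SE, limma adjusted p = 0.132). Both subunits were lowest in H1. Rrn3, the initiation factor that makes the polymerase ready to start, measured 101 and 98.5 TPM in L1 and L2 and 54.8 and 56.8 TPM in H1 and H2, with both pairs close. Its 1.79-fold difference missed the threshold (log2 fold change −0.83 ± 0.24 SE, limma adjusted p = 0.0578), but passed it among rows whose mean reached 5 TPM, after median centring, after rescaling without small non-coding RNA rows and with robust moderation (limma adjusted p = 0.0434, 0.0479, 0.0491 and 0.049). Ubtf, the factor that keeps ribosomal DNA open and active, measured 158 and 139 TPM in L1 and L2 and 67.8 and 108 TPM in H1 and H2 (log2 fold change −0.79 ± 0.27 SE, limma adjusted p = 0.106).

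Mybbp1a, a nucleolar protein that regulates ribosomal RNA synthesis, was the called gene of this group, falling from 314 ± 19.8 to 140.2 ± 22.3 TPM (log2 fold change −1.17 ± 0.23 SE, limma adjusted p = 0.0133). It measured 328 and 300.0 TPM in L1 and L2 and 124 and 156 TPM in H1 and H2, without overlap between the groups. Without L1 or L2 it was not called (limma adjusted p = 0.207 and 0.207). Ddx21, an RNA helicase found with RNA polymerase I and with snoRNAs, measured 252 and 231 TPM in L1 and L2 and 97.9 and 208 TPM in H1 and H2 (limma adjusted p = 0.179). Its H2 came close to the low density pair.

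Among the 15 genes of the small subunit, 1 was called, all 15 had a log2 fold change below 0, and 10 had groups that did not overlap. Over all rows 2.11% were called lower, 40.3% had a log2 fold change below 0 and 20% were lower without overlap. The median log2 fold change of the 15 was −0.74. Rrp9, a WD-repeat protein that recognises the guide snoRNA of the processome, fell from 142 ± 11.3 to 51.8 ± 8.54 TPM (log2 fold change −1.45 ± 0.25 SE, limma adjusted p = 0.00587). It measured 134 and 150.2 TPM in L1 and L2 and 45.8 and 57.8 TPM in H1 and H2, and its call held without L1 but not without L2 (limma adjusted p = 0.205). Rrp12, which acts in the maturation and export of precursors, had a log2 fold change of −1.39 and the widest log2 gap between H1 and H2 among the 44 genes. It measured 51.2 and 48.0 TPM in L1 and L2 and 10.01 and 32.6 TPM in H1 and H2 and was not called (limma adjusted p = 0.0714). Its ratio of low to high density was 1.52 without H1 and 4.95 without H2.

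The group holds 4 late factors of the small subunit, of which 0 were called by limma. Pno1, which helps to place the final cut of the small subunit RNA, measured 128 and 132 TPM in L1 and L2 and 34.0 and 102 TPM in H1 and H2 (limma adjusted p = 0.116). The same ratio for Pno1 was 1.27 without H1 and 3.82 without H2. Tsr1, a GTPase-like protein that keeps immature subunits from translating, measured 53.2 and 52.5 TPM in L1 and L2 and 15.2 and 35.3 TPM in H1 and H2 (limma adjusted p = 0.0718). Ltv1, an export adaptor, measured 90.8 and 90.5 TPM in L1 and L2 and 45.1 and 125 TPM in H1 and H2 (limma adjusted p = 0.719), and H2 was above both low density libraries. Bysl, an assembly factor also called bystin, measured 49.9 and 43.2 TPM in L1 and L2 and 18.8 and 39.7 TPM in H1 and H2 (limma adjusted p = 0.207).

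The other 9 genes of this group encode early processome proteins. Heatr1, Utp15, Wdr43 and Wdr75 belong to the module that joins the precursor first. Heatr1 measured 58.4 and 50.3 TPM in L1 and L2 and 20.9 and 42.4 TPM in H1 and H2 (log2 fold change −0.84). Utp15 measured 55.0 and 50.6 TPM in L1 and L2 and 27.9 and 46.3 TPM in H1 and H2 (−0.54). In both, H1 and H2 were below L1 and L2. Wdr75 measured 76.6 and 76.0 TPM in L1 and L2 and 37.2 and 73.8 TPM in H1 and H2 (−0.53). Wdr43 measured 176 and 195 TPM in L1 and L2 and 92.7 and 199 TPM in H1 and H2 (−0.45), and without H1 its sign turned (0.10). Of the other processome proteins, Utp20, a very large scaffold protein, measured 49.2 and 42.7 TPM in L1 and L2 and 16.3 and 37.6 TPM in H1 and H2 (−0.86). Utp18, a WD-repeat protein, measured 91.9 and 112 TPM in L1 and L2 and 56.3 and 114 TPM in H1 and H2 (−0.33), and its sign also turned without H1 (0.17). None of these 6 was called by limma, with adjusted p from 0.146 to 0.568. Noc4l, a partner of Nop14, measured 83.8 and 74.4 TPM in L1 and L2 and 40.2 and 54.3 TPM in H1 and H2 and was called only after median centring (limma adjusted p = 0.0479) or without a high density library, among the alternatives tried. Nop14 itself measured 98.3 and 91.7 TPM in L1 and L2 and 64.3 and 130.4 TPM in H1 and H2, a mean of 95.01 ± 4.71 against 97.4 ± 46.7 TPM, with a log2 fold change of −0.05 that turned positive without H1 (0.45). Ddx10, an RNA helicase, measured 76.1 and 67.1 TPM in L1 and L2 and 50.3 and 69.6 TPM in H1 and H2 (limma adjusted p = 0.577), and its groups overlapped.

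The large subunit group had 4 called genes among 13, a median log2 fold change of −0.90 and 10 genes whose groups did not overlap. Over all rows 2.11% were called lower and 20% were lower without overlap. Ebna1bp2, an early factor of the large subunit, had the most negative log2 fold change of the 44 genes. It measured 132 and 156 TPM in L1 and L2 and 48.1 and 40.6 TPM in H1 and H2, a 3.25-fold decrease (log2 fold change −1.68 ± 0.24 SE, limma adjusted p = 0.00262). Nop16, a small nucleolar protein of the large subunit precursor, measured 78.7 and 86.5 TPM in L1 and L2 and 33.7 and 32.8 TPM in H1 and H2 and was 2.48-fold lower (log2 fold change −1.28 ± 0.24 SE, limma adjusted p = 0.0106). In both genes the high density libraries were close together. The Nop16 call was lost without L1 or L2 (limma adjusted p = 0.149 and 0.383), and that of Ebna1bp2 without L2 (0.122).

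Bop1, Pes1 and Wdr12 encode the 3 proteins of the PeBoW complex, which is needed to process the large subunit RNA. Bop1 was called, at 138 and 127 TPM in L1 and L2 and 44.7 and 70.0 TPM in H1 and H2 (log2 fold change −1.23 ± 0.27 SE, limma adjusted p = 0.0201). Pes1 measured 149 and 139 TPM in L1 and L2 and 92.1 and 116 TPM in H1 and H2 (limma adjusted p = 0.254). Wdr12 measured 68.7 and 70.4 TPM in L1 and L2 and 38.2 and 75.1 TPM in H1 and H2 (limma adjusted p = 0.512), and only its H1 lay below the low density pair. The 3 genes had log2 fold changes of −1.23, −0.48 and −0.37, and whether these differ was not tested. The Bop1 call was lost without L1 and without L2 (limma adjusted p = 0.226 and 0.273) and, narrowly, without the variance trend (0.0506).

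Gnl3, nucleostemin, a GTPase that is abundant in proliferating and stem cells, measured 409.6 and 469.7 TPM in L1 and L2 and 153 and 279 TPM in H1 and H2. It was called over all 4 libraries (log2 fold change −1.08 ± 0.29 SE, limma adjusted p = 0.0453), with the adjusted p nearest to the threshold among the 9. The call was lost without L1 and without L2 (0.125 and 0.521) and under a pseudocount of 5 (limma adjusted p = 0.0506), median centring (0.063), quantile normalisation (0.119), rescaling without ribosomal protein genes (0.0704) and no variance trend (0.0993). Nop2, a methyltransferase of large subunit RNA, measured 181 and 192 TPM in L1 and L2 and 62.8 and 127 TPM in H1 and H2 and just missed the threshold (limma adjusted p = 0.0634). Nifk, a partner of the proliferation marker protein Ki-67, measured 140.2 and 139 TPM in L1 and L2 and 49.7 and 95.6 TPM in H1 and H2 (limma adjusted p = 0.0688). Both passed the test among rows whose mean reached 5 TPM (limma adjusted p = 0.0313 and 0.0379).

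The remaining large subunit genes were not called, with limma adjusted p from 0.106 to 0.513 for Nip7, Rrp1b, Noc2l and Noc3l. Nip7, an early factor, measured 59.7 and 80.6 TPM in L1 and L2 and 27.4 and 49.1 TPM in H1 and H2 (log2 fold change −0.90). Rrp1b, a nucleolar protein that also binds chromatin, measured 40.2 and 38.6 TPM in L1 and L2 and 16.5 and 29.9 TPM in H1 and H2 (−0.80). Noc2l, which also acts as a histone acetyltransferase inhibitor, measured 228 and 222 TPM in L1 and L2 and 139 and 177 TPM in H1 and H2 (−0.52). In these 3 genes H1 and H2 were below L1 and L2, with H1 the lowest. Noc3l, a partner of Noc2l, measured 32.4 and 30.7 TPM in L1 and L2 and 13.5 and 37.4 TPM in H1 and H2, with a log2 fold change of −0.46, so its high density libraries stood on either side of the low density pair. Rrp8, which methylates large subunit RNA and also takes part in silencing ribosomal DNA, was the exception in sign. It measured 41.2 and 36.0 TPM in L1 and L2 and 29.2 and 53.7 TPM in H1 and H2 (log2 fold change 0.04 ± 0.31 SE, limma adjusted p = 0.954), and its log2 fold change was below 0 after median centring (−0.15) and quantile normalisation (−0.13).

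**Figure D3:**
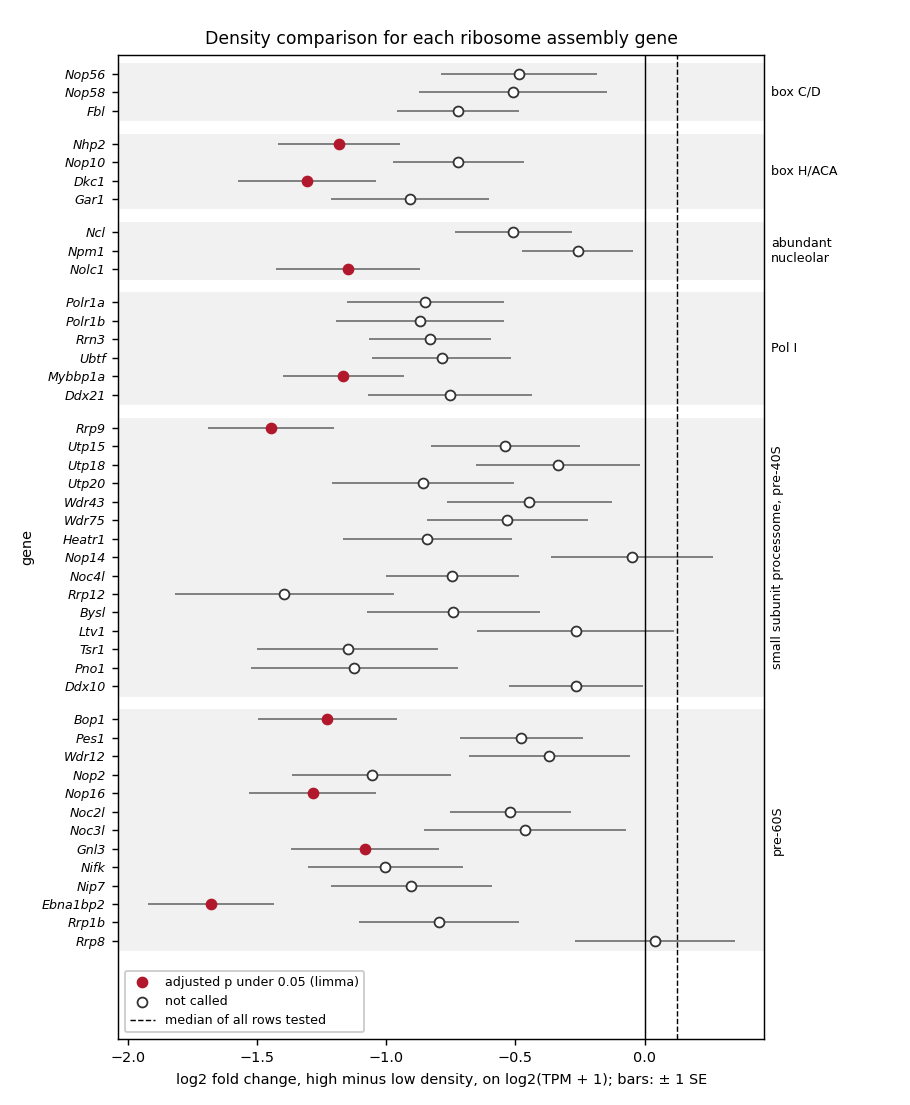
Log2 fold change of high over low density (x axis, ± 1 SE from limma, 2 libraries per group) for each of the 44 genes by role (y axis), with the 9 called genes filled. The dashed line marks the median of all rows, 0.12, and the point estimate of each of the 44 genes lies left of it.

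The 2 high density libraries differed in these genes. H1 was below both low density libraries in all 44 genes, where 44.1% of all rows showed this, and H2 in 34 genes, against 25.4% of all rows. H1 was the lower of the pair in 40 genes, against 70.9% of all rows. The median log2 difference of H1 minus H2 was −0.84 over the 44 genes and −0.27 over all rows. The 4 genes not lower in H1 were Nop10, Npm1, Nop16 and Ebna1bp2. In the small subunit group all 15 genes were lower in H1, with a median difference of −1.01, and in the box H/ACA group the median difference was −0.38. H1 and H2 each stand for 1 sample, so this difference has no replicate check.

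**Figure D4:**
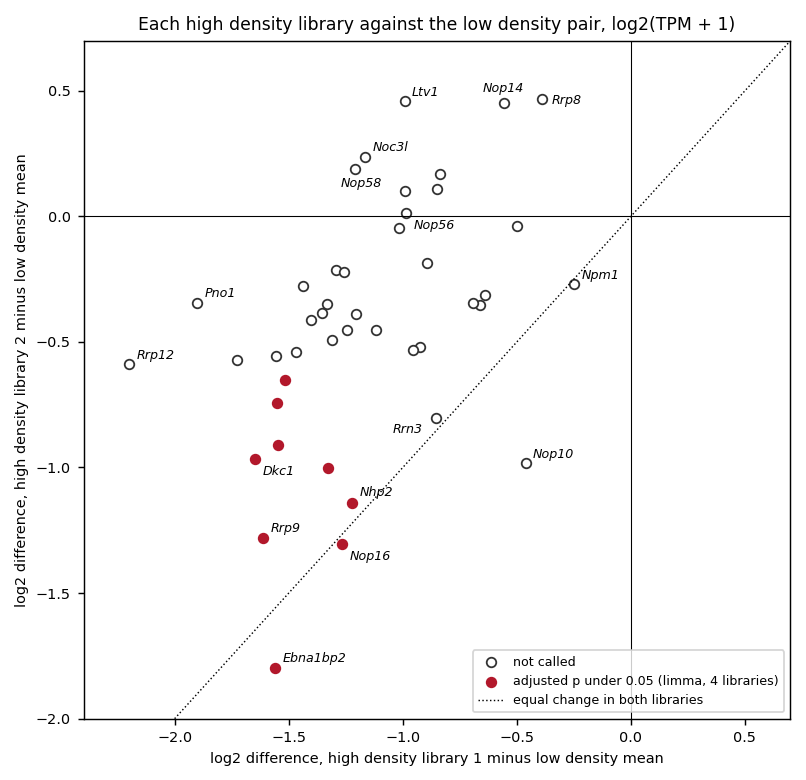
Log2 difference from the mean of the low density libraries for H1 (x axis) and H2 (y axis), on log2(TPM + 1), 1 point per gene, with the 9 called genes filled and a dotted line of equal change. All 44 points lie left of 0 on the x axis and 40 lie above the dotted line.

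The other genes of ribosome assembly were taken from a list of 126, also chosen with earlier results of these data known. Of these 123 were found, all of them above the filter. Limma called 8 of the 123 (6.5%) lower and 0 higher (6 higher at an unadjusted p under 0.05). Their median log2 fold change was −0.38, and 99 had a log2 fold change below 0. Over all rows 2.11% were called lower, 4.57% were called higher and 40.3% had a log2 fold change below 0. At an unadjusted p under 0.05 by limma stood 2569 of the 10936 rows, of which 849 (7.76%) were lower and the rest higher. Among small subunit factors 2 of 39 were called, Tbl3 (66.5 ± 0.311 to 32.9 ± 2.32 TPM; log2 fold change −0.997 ± 0.25 SE, limma adjusted p = 0.0352) and Pwp2 (53.8 ± 5.17 to 23.8 ± 8.85 TPM; log2 fold change −1.19 ± 0.30 SE, limma adjusted p = 0.0371), both WD-repeat proteins of the processome. Among large subunit factors 4 of 46 were called. The 2 with the smallest p were Ppan, an early factor also called Peter Pan (161 ± 19.0 to 62.0 ± 17.0 TPM; log2 fold change −1.38 ± 0.26 SE, limma adjusted p = 0.0106), and Lyar, a nucleolar zinc finger protein (255 ± 8.61 to 122 ± 19.8 TPM; log2 fold change −1.07 ± 0.23 SE, limma adjusted p = 0.0201). Of 14 genes for further RNA polymerase I subunits and factors 0 were called by limma, with 3 lower and 1 higher at an unadjusted p under 0.05. The 3 lower were Polr2f, Polr2l and Polr2e, for subunits that RNA polymerase I shares with the other RNA polymerases. The 1 higher was Taf1b, a factor of RNA polymerase I. Of 14 genes of the RNA exosome, which trims ribosomal RNA, 1 was called, Exosc6 (log2 fold change −0.998 ± 0.27 SE, limma adjusted p = 0.0466). Of 10 snoRNP assembly genes 1 was called. This was Snu13, the box C/D core protein named above (log2 fold change −0.94 ± 0.23 SE, limma adjusted p = 0.03).

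Of the 123, 113 were lower in H1 than in H2, against 70.9% of all rows. The count of 8 fell to 0 without L2 (11 lower at an unadjusted p under 0.05) and 1 without L1 or without the variance trend. It rose without H2 and without H1, where some of these genes were also called higher. The calls over all rows then rose as well, in both directions.

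Some of the 44 genes carry small RNAs inside them. On the same strand within Nop56, Nop58, Ncl, Wdr43, Tsr1 and Gnl3 the reference annotation placed 12 small nucleolar RNA rows of the table, 68 to 133 bases long, of which 10 passed the filter. No source used here gives how the authors counted and length-corrected such short rows, so their levels are uncertain. Of the 10, 8 had a log2 fold change below 0, against 40.3% of all rows, and 1 was called, against 2.11% called lower. This was Snord69, a box C/D RNA within Gnl3, at 96.1 and 121 TPM in L1 and L2 and 57.1 and 27.9 TPM in H1 and H2 (log2 fold change −1.41 ± 0.32 SE, limma adjusted p = 0.0252). Snord19, also within Gnl3, measured 71.4 and 88.3 TPM in L1 and L2 and 37.7 and 53.4 TPM in H1 and H2 (limma adjusted p = 0.0942). Both were lower in each high density library, as was their host. Snord53 within Wdr43 measured 37.2 and 45.5 TPM in L1 and L2 and 33.4 and 37.4 TPM in H1 and H2, and Snora75 within Ncl measured 27.8 and 22.4 TPM in L1 and L2 and 22.3 and 8.52 TPM in H1 and H2.

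Across the 44 genes the log2 fold change went with the GC content of the longest coding transcript at r = −0.39 (Spearman rho −0.42), against −0.07 over 10076 tested rows with a transcript. It went with the log2 length at r = 0.17, against 0.20 over those rows, and with the mean log2 level at 0.09, against −0.10 over all 10936 rows. The log2 difference of H1 minus H2 went with log2 length at r = −0.35 over the 44 genes and −0.10 over the 10076 rows. That difference went with the level, measured in the same way, at r = 0.34 over the 44 genes and 0.07 over all 10936 rows. With GC content the values were 0.18 over the 44 genes and 0.15 over the 10076 rows. All points share the same 4 libraries, genes are not independent, and these values are descriptions. The part of GC content, length and level in the results was not tested.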

How the data were processed

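RNA of BEKO cells was extracted with a column kit, and a commercial provider made strand-specific libraries, per the labels' protocols. The authors deposited TPM values for 25630 rows in 4 libraries, each column summing to 1000000 per the values. The submitters' processing notes name mm9 and DESeq2 1.2.10 without a role. For the aligner, counter, annotation and lengths: not given in the sources used here. TPM keeps no depth, so reads per library are unknown and no counting interval is given.

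Log2(TPM + 1) was computed, and the 10936 rows whose mean reached 1 TPM were tested with limma 3.58.1 in R 4.3.3 (mean-variance trend, two-sided, 2 residual degrees of freedom plus 9.53 from moderation, Benjamini-Hochberg adjustment). The script was tested on simulated data. The smallest p that an exact permutation test can give for 1 gene in this design is 0.333, so none is reported. Values are TPM per library or mean ± SD (n = 2), and plain folds divide the mean TPM values.

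The 44 genes and the further lists were chosen with earlier results of these data known. Full statistics are given for called genes and for the snoRNP core proteins, Ncl, Npm1, Nolc1, Polr1a, Polr1b, Rrn3 and Ubtf, and of the other assembly genes for at most 2 called per role and direction. Older symbols were looked up in RefSeq. The reference is of build GRCm38, so it was used for names, transcript length, GC content, which RNA lies within which gene, and promoter sequences.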

Additional observations from a re-analysis of the deposited data

How the results depend on the processing

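Leaving out each library in turn gave 99 to 2873 rows called higher, 69 to 1271 rows called lower, 0 to 39 of the 44 genes called lower, 0 of them called higher, and 0 to 71 of the other assembly genes called lower and 0 to 12 higher. The median log2 fold change of the 44 genes then ran from −1.21 to −0.39, and it lay between −0.98 and −0.74 under every other alternative tried. A library left out leaves a lone library that is assumed to vary like the other group. Log2 fold changes that changed sign with a library left out ran from −0.99 to 0.46 for Ltv1, from −1.16 to 0.24 for Noc3l, from −0.55 to 0.45 for Nop14, from −0.99 to 0.014 for Nop56, from −1.21 to 0.19 for Nop58, from −0.84 to 0.17 for Utp18, from −0.85 to 0.11 for Wdr12, from −0.99 to 0.10 for Wdr43 and from −0.39 to 0.47 for Rrp8, and that of Rrp8 was −0.15 after median centring and −0.13 after quantile normalisation.

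With no filter on low values 0 rows were called in either direction by limma (2565 at an unadjusted p under 0.05), so 0 of the 44 genes (10 lower at an unadjusted p under 0.05) and 0 of the other assembly genes (22). Keeping only rows with means from 5 TPM up, 14 of the 44 and 18 of the other genes were lower. The other genes called lower were 13 after median centring, 5 after rescaling without ribosomal protein genes and 1 without the variance trend. Rows called higher were 160 after median centring, with 154 lower, and 216 after quantile normalisation, with 144 lower. Without rescaling these were 500 and 231. The median over all rows was 0.12, −0.06 after median centring and −0.012 after quantile normalisation, and the 44 genes lay at −0.91, −0.91 and −0.88 relative to it. Rows called lower without the variance trend were 144. With the replicate number as a block 15 of the 44 genes and 3.08% of all rows were lower. But the labels do not say that a number pairs libraries. Across rows the log2 difference of L1 minus L2 correlated with that of H1 minus H2 at r = 0.042. TPM gives no depth, so what depth limits cannot be stated.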
